A study of Mus musculus with 3 samples.

Results

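Activated T cells carry inhibitory receptors, the immune checkpoints, and 8 genes of this system were followed here in mouse skin: the receptors *Pdcd1*, *Lag3*, *Havcr2*, *Tigit* and *Ctla4*, the transcription factor *Tox*, and the ligands *Cd274* and *Pdcd1lg2*. They were taken by name, as 8 of the 32285 genes counted, with earlier results of these data known. The receptors and *Tox* were measured in T cells, defined as cells with a unique molecular identifier (UMI, 1 captured mRNA molecule) of at least 2 of the 5 genes *Cd3d*, *Cd3e*, *Cd3g*, *Trac* and *Trbc2*. The ligands were measured in every cell class.

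Droplet-based single-cell RNA sequencing was done on dorsal skin of female C3H/HeN mice aged 25 weeks, in 3 libraries of 1 pool of 7 to 8 mice each. In the alopecia areata (AA) library, hair loss had been induced by injecting skin-draining lymph node cells of affected donors into the skin. Those cells had been expanded in culture with IL-2, IL-7, IL-15 and beads against CD3 and CD28, so transferred T cells and the T cells of the host cannot be told apart. The AA+Ab library came from AA mice given a CXCL12-neutralizing antibody, whose dose is not given in the sources used here. The Neg library is labelled both a vehicle control and unaffected, and what the vehicle was is not given there either. Cells were freed with collagenase and a Percoll gradient, with no sort for T cells. With 1 library per group, no difference below has a replicate check and none was tested. Intervals are exact 95% intervals that cover counting error only.

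PD-1, the product of *Pdcd1*, is switched on by T cell receptor signalling and dampens that signalling when it binds PD-L1 (*Cd274*) or PD-L2 (*Pdcd1lg2*). CTLA-4 competes with the co-stimulatory receptor CD28 for its ligands and is abundant in regulatory T cells, TIGIT binds nectin-type ligands, TIM-3 (*Havcr2*) binds ligands that include galectin-9, and LAG-3 binds MHC class II. T cells under lasting antigen exposure carry several of these receptors at once and need TOX for that state, which is known as exhaustion, but single receptors are also signs of recent activation. PD-L1 is induced by interferon-γ in many cell types, and AA is known as a disease in which interferon-γ from CD8+ T cells acts on the hair follicle.

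Promoter sequences of RefSeq (GRCm38.p6) were matched by symbol for 6 of the 8 genes, all but *Lag3* and *Tox*. The windows of 300 bases below run from 250 bases before to 50 bases after the transcription start, on the strand of the gene. They are shown for the receptors with the largest differences between libraries and for the ligand found in most cell classes. Capitals mark the NFAT core GGAAA on either strand (TTTCC on the strand shown), a motif of the factors that T cell receptor signalling activates. *Pdcd1* (ENSMUSG00000026285) lies on chr1:94038305-94052553 (minus strand, GENCODE M21), and its window is chr1:94052504-94052803. *Havcr2* (ENSMUSG00000020399) lies on chr11:46454935-46481255 (plus strand), and its window is chr11:46454681-46454980. *Cd274* (ENSMUSG00000016496) lies on chr19:29367455-29388095 (plus strand), and its window is chr19:29367188-29367487.
Pdcd1: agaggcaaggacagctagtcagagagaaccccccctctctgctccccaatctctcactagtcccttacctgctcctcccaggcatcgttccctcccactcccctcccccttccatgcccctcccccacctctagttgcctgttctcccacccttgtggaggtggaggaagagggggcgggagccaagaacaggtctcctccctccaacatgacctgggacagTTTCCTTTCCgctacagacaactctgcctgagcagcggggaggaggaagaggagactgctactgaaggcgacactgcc
Havcr2: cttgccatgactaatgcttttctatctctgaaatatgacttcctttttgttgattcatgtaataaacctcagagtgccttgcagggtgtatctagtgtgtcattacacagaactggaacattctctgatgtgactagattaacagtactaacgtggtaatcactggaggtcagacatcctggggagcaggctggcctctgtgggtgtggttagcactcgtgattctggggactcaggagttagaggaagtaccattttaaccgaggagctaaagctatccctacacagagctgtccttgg
Cd274: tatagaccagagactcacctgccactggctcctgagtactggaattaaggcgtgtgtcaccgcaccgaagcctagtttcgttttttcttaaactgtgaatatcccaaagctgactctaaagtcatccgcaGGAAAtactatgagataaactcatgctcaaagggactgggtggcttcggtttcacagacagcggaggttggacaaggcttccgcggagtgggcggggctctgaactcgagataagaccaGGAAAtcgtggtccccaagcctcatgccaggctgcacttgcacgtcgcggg
The NFAT core was found 2 times in the *Pdcd1* window, 2 times in that of *Cd274*, 2 times in that of *Tigit*, once each in those of *Ctla4* and *Pdcd1lg2*, and 0 times in that of *Havcr2*. Of all 32851 promoters of this length, 61.3% held it. The interferon-γ activation site TTCNNNGAA (in 8.30% of promoters, both strands) and the interferon-stimulated response element (GAAA, any 2 bases, GAAA, in 3.44%) had 0 matches in all 6 windows. These are matches of letters in a short window only.

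Cells were kept at up to 10% of UMIs from mitochondrial genes and with 200 or more detected genes, which left 6582 (Neg), 10433 (AA) and 9832 (AA+Ab) cells with medians of 13694.5, 11177 and 11371 UMIs. T cells by the 2-gene rule made up 4.83%, 4.70% and 4.91% of them, or 318, 490 and 483 cells. They fell into different clusters by library. A T cell-like cluster held 74, 319 and 188 of them, a cluster with markers of γδ T cells (*Trdc*, *Cd163l1* and others) held 164, 103 and 209, and 80, 68 and 86 lay elsewhere. Those elsewhere had medians of 147.5, 90 and 121 UMIs of the keratinocyte gene *Krt14*, against 1 or 2 in both T clusters. The T cell gene *Cd2* was found in 11.2%, 13.2% and 17.4% of them, against 71.3% to 79.9% in the T clusters, and they held 63.8%, 37.8% and 54.5% of all UMIs of the T cells by the rule. The doublet score marked 8.75%, 16.2% and 30.2% of them. Levels of the 8 genes in T cells are therefore given for the rule and for the T cell-like cluster alone. Between pairs of libraries, 17 to 28 cell barcodes were shared.

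*Pdcd1* had its highest level in AA by either definition. Over all T cells by the rule it was at 3.49 CPM (19 UMIs, CPM being UMIs per 1000000 UMIs of the same cells) in Neg, 42.9 CPM (172 UMIs) in AA and 6.89 CPM (36 UMIs) in AA+Ab. The ratio of AA to Neg was 12.3 (7.62 to 20.9), and that of AA+Ab to AA was 0.161 (0.109 to 0.231). Within the T cell-like cluster, which held nearly all of these UMIs, the levels were 31.3 CPM, 90.9 CPM and 32.2 CPM. There the ratio of AA to Neg was 2.91 (1.81 to 4.95), that of AA+Ab to AA 0.354 (0.240 to 0.510), and that of AA+Ab to Neg 1.03 (0.575 to 1.90). The AA library thus stood above both others beyond counting error, and the size of its excess over Neg depended on which cells were counted as T cells.

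The share of cells pointed the same way with less separation. *Pdcd1* was found in 9 of 74 cells of the T cell-like cluster in Neg (12.2%, 5.71% to 21.8%), in 61 of 319 in AA (19.1%, 15% to 23.9%) and in 16 of 188 in AA+Ab (8.51%, 4.94% to 13.5%). The intervals of Neg and AA overlap. Thinned to 1000 UMIs per cell, it was found in 3 of 74, 28 of 315 and 7 of 186 cells (4.05%, 8.89% and 3.76%). Few cells carried much of the count: the highest cell held 5, 17 and 10 UMIs, and 5 cells held 73.7%, 32.4% and 66.7% of the *Pdcd1* UMIs of the T cell-like cluster in Neg, AA and AA+Ab. Without the highest cell of each library the log2 ratios in that cluster were 1.78 for AA to Neg and -1.81 for AA+Ab to AA. In keratinocyte-like cells, which should lack PD-1, *Pdcd1* had 2, 2 and 0 UMIs in 5241, 8609 and 7989 cells (0.0382%, 0.0116% and 0% of cells) with medians of 14104, 11557 and 11730 UMIs. T cells of the T cell-like cluster had medians of 5377.5, 4267 and 4296.5. Across the γδ-like cluster it had 0 UMIs in all 3 libraries, which allows up to 2.20, 4.81 and 2.38 CPM (3 counts).

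*Havcr2* was found mostly in AA within the T cell-like cluster, and in all 3 libraries among T cells by the rule. In the cluster it had 1 UMI in Neg, 113 in AA and 10 in AA+Ab (1.65, 60.4 and 8.94 CPM), in 1, 47 and 9 cells (1.35%, 14.7% and 4.79%). The ratio of AA+Ab to AA was 0.148 (0.0691 to 0.282), and that of AA to Neg, resting on 1 UMI, was 36.7 (6.46 to 1463). Thinned to 1000 UMIs it was found in 0, 17 and 1 of these cells. Over all T cells by the rule the levels were 6.62, 36.2 and 10.9 CPM, with ratios of 5.46 (3.77 to 8.10) and 0.302 (0.218 to 0.412). Most of the *Havcr2* UMIs outside the cluster came from the γδ-like cluster, where TIM-3 mRNA was present in every library: 27, 23 and 34 UMIs (19.8, 36.9 and 27.0 CPM). Keratinocyte-like cells held 14, 14 and 12 *Havcr2* UMIs (in 0.267%, 0.163% and 0.138% of cells).

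CD8 T cells carried most of both genes in AA. T cells were split by UMIs into *Foxp3* cells, CD8 cells (*Cd8a* or *Cd8b1*, without *Cd4* or *Foxp3*), CD4 cells, γδ cells (*Trdc* without the former) and a rest. The T cell-like cluster held 14.9% CD8 cells in Neg, 59.9% in AA and 32.4% in AA+Ab, so its makeup differed between libraries along with these genes. In AA the CD8 cells of that cluster held 71.8% of its *Pdcd1* UMIs and 85.0% of its *Havcr2* UMIs. Within all CD8 cells (12, 199 and 65 cells) *Pdcd1* had 4, 124 and 22 UMIs, or 47.9, 102 and 37.3 CPM. The ratio of AA+Ab to AA within CD8 cells was 0.365 (0.221 to 0.578), and that of AA to Neg was 2.13 (0.812 to 7.95), an interval that includes 1. *Havcr2* had 0, 96 and 4 UMIs in CD8 cells, in 0 of 12, 36 of 199 and 3 of 65 cells. The ratio of AA+Ab to AA was 0.0858 (0.0229 to 0.227). Against a floor of 3 UMIs in the Neg library, the *Havcr2* level of AA was 2.20-fold higher, counting UMIs alone. By cells no difference is resolved, since 0 of 12 cells allows a share of up to 25%, above the share in AA. Neg therefore held too few CD8 cells to compare *Pdcd1* or *Havcr2* there. The lower levels of both genes in AA+Ab than in AA were also seen within CD8 cells.

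**Figure D1:**
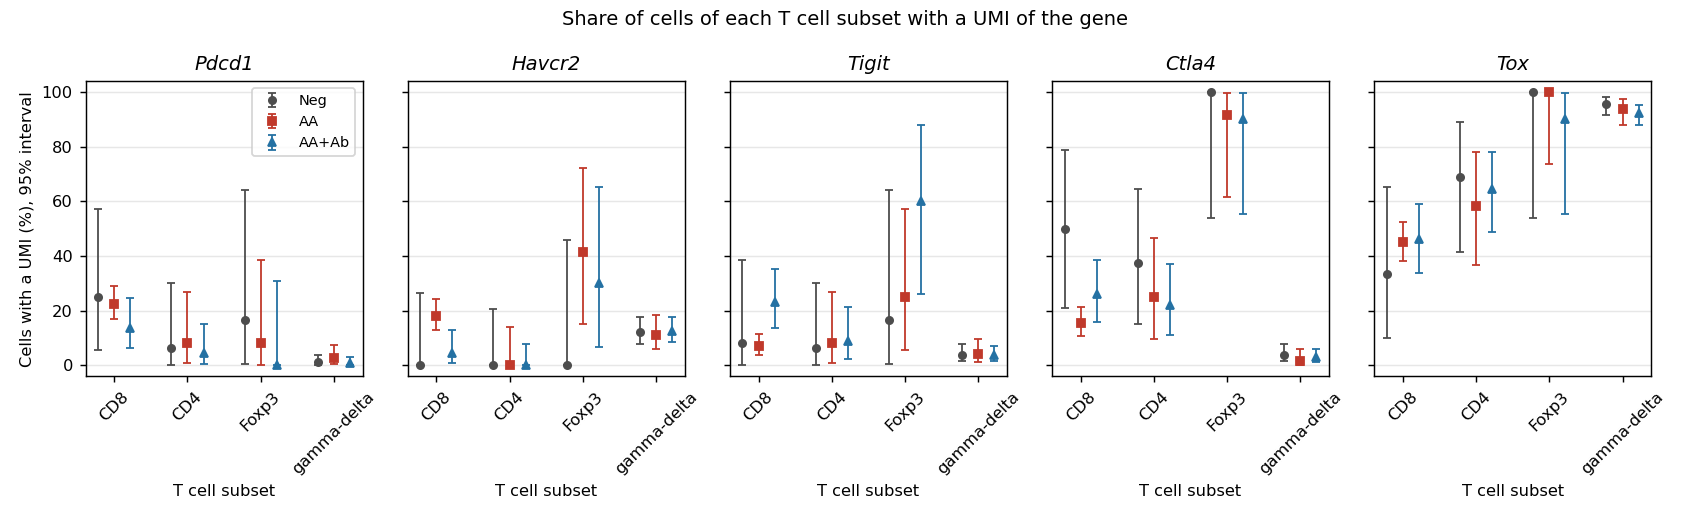
Share of cells with a UMI of *Pdcd1*, *Havcr2*, *Tigit*, *Ctla4* and *Tox* (%, exact 95% interval) in CD8, CD4, *Foxp3* and γδ T cells of the Neg, AA and AA+Ab libraries. *Havcr2* was found in 36 of 199 CD8 cells in AA and in 3 of 65 in AA+Ab, while *Ctla4* was found in nearly all *Foxp3* cells of each library.

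*Pdcd1* and *Havcr2* were often found in the same cells in AA. Among T cells by the rule, 0 cells in Neg, 24 in AA and 1 in AA+Ab had a UMI of both. In AA that was 38.7% of the 62 cells with *Pdcd1*, while *Havcr2* was found in 8.88% of the 428 cells without *Pdcd1*. Within CD8 cells of AA, 22 cells had both, which is 48.9% of the 45 with *Pdcd1*, and 9.09% of those without it had *Havcr2*. The CD8 cells with both were somewhat deeper, with a median of 5197 UMIs against 3887 in those with neither, and thinned to 1000 UMIs 3 cells kept both. At least 2 of the 5 receptors were found in 13 of 318 T cells in Neg (4.09%, 2.19% to 6.89%), 63 of 490 in AA (12.9%, 10.0% to 16.1%) and 33 of 483 in AA+Ab (6.83%, 4.75% to 9.46%). After thinning these were 2, 10 and 4 cells. Within CD8 cells alone no excess in AA was seen. There the counts were 3 of 12 in Neg (25%, 5.49% to 57.2%), 39 of 199 in AA (19.6%, 14.3% to 25.8%) and 13 of 65 in AA+Ab (20%, 11.1% to 31.8%). After thinning, 0, 5 and 0 of these CD8 cells were left. CD8 cells made up 3.77%, 40.6% and 13.5% of T cells by the rule.

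*Tigit* (chr16:43648867-43664146, minus strand) was not lower in AA+Ab than in AA beyond counting error, unlike *Pdcd1* and *Havcr2*. Over all T cells it had 18, 37 and 44 UMIs, or 3.31, 9.23 and 8.42 CPM, with ratios of 2.79 (1.55 to 5.20) for AA to Neg and 0.912 (0.576 to 1.45) for AA+Ab to AA. Within the T cell-like cluster the levels were 14.8, 16.6 and 25.9 CPM, with ratios of 1.12 (0.520 to 2.67) and 1.56 (0.909 to 2.68). Of the 9 UMIs in Neg there, 7 lay in 1 cell, and without the highest cell of each library the log2 ratio of AA to Neg went from 0.16 to 2.17. In CD8 cells *Tigit* was found in 1 of 12, 14 of 199 and 15 of 65 cells (8.33%, 7.04% and 23.1%), and the intervals of AA (3.90% to 11.5%) and AA+Ab (13.5% to 35.2%) do not overlap. Thinned, these were 0, 1 and 3 cells. Its CPM ratio of AA+Ab to AA in CD8 cells was 2.06 (0.964 to 4.4). Thinned to 1000 UMIs, *Tigit* was found in 2, 1 and 10 T cells, too few to read a direction, and the log2 ratio of AA to Neg changed sign there. Keratinocyte-like cells held 1, 1 and 2 *Tigit* UMIs (in 0.0191%, 0.0116% and 0.0250% of cells).

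*Ctla4* was highest per UMI in *Foxp3* cells, the regulatory T cells, in all 3 libraries. Over all T cells by the rule it was at 35.3, 108 and 58.5 CPM (192, 434 and 306 UMIs), with ratios of 3.06 (2.58 to 3.65) and 0.541 (0.466 to 0.628). Inside the T cell-like cluster it was at 263, 229 and 246 CPM, with ratios of 0.869 (0.723 to 1.05) and 1.07 (0.920 to 1.25), so both directions turned. The difference seen by the rule was thus not seen within the cluster, where both intervals include 1. *Foxp3* cells, 6, 11 and 8 in that cluster, held 42.5%, 45.8% and 38.5% of its *Ctla4* UMIs, and the highest single cells held 38, 57 and 27 UMIs. Among all *Foxp3* cells the level was 1300, 2053 and 1147 CPM, and the ratio of AA+Ab to AA was 0.559 (0.438 to 0.709), over 12 and 10 cells. In CD8 cells the ratio of AA+Ab to AA was 1.5 (1.10 to 2.04), the opposite direction. By the rule, 11.6%, 14.3% and 13% of T cells had a *Ctla4* UMI, and 15 of 317, 29 of 486 and 23 of 477 did after thinning. *Ctla4* was also found in 4.60%, 3.8% and 4.44% of keratinocyte-like cells (0.229%, 0.372% and 0.239% after thinning), at 2.53, 2.90 and 3.35 CPM and mostly at 1 UMI per cell. A processed pseudogene, *Rpl18-ps1*, lies inside *Ctla4* (chr1:60887000-60915832, plus strand) on the same strand and has no row of its own among the counted genes, and whether its reads enter the *Ctla4* count was not tested.

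The receptors differed in which subset held them. CD4 cells (16, 24 and 45 cells) had 2, 12 and 2 *Pdcd1* UMIs and 0 *Havcr2* UMIs in all 3 libraries, and 11 of the 12 *Pdcd1* UMIs of AA lay in 1 cell. Their *Ctla4* level, 215, 442 and 239 CPM, was above that of CD8 cells (180, 85.6 and 129 CPM), and rested on 6, 6 and 10 cells with a UMI. *Foxp3* cells (6, 12 and 10 cells) had 0, 10 and 3 *Havcr2* UMIs, in 0, 5 and 3 cells. *Tigit* was found in 1, 3 and 6 of these cells. The γδ cells by *Trdc* (181, 115 and 230 cells) had *Havcr2* in 12.2%, 11.3% and 12.6% of cells, a similar share in each library. They held 30 of the 36 *Havcr2* UMIs of T cells in Neg and 40 of 57 in AA+Ab, but 23 of 145 in AA. They had *Tigit* in 3.87%, 4.35% and 3.91% of cells. Their *Pdcd1* UMIs, 8, 4 and 9 in 2, 3 and 2 cells, all lay outside the γδ-like cluster and made up 42.1%, 2.33% and 25% of the *Pdcd1* UMIs of T cells. In the γδ-like cluster the CPM ratio of *Havcr2* was 1.86 (1.02 to 3.37) for AA to Neg and 0.731 (0.418 to 1.30) for AA+Ab to AA.

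*Lag3* was too rare in T cells to compare. It had 3, 9 and 6 UMIs in T cells by the rule and 1, 8 and 3 in the T cell-like cluster. The ratio of AA to Neg was 4.07 (1.01 to 23.4) by the rule and 2.60 (0.349 to 115) in the cluster, and that of AA+Ab to AA by the rule was 0.511 (0.150 to 1.61). Keratinocyte-like cells held 70, 98 and 92 *Lag3* UMIs at 0.706, 0.841 and 0.786 CPM, in 1.28%, 0.987% and 1.06% of cells, against 0.943%, 1.22% and 1.04% of T cells. The shares of T cells lay near those of the deeper keratinocyte-like cells (medians of 6508, 4769.5 and 4927 UMIs in T cells). Per UMI, the T cell-like class was higher, at 4.52, 5.14 and 2.93 CPM, but from 4, 11 and 4 UMIs, and in AA+Ab its interval (0.799 to 7.51) overlapped that of keratinocyte-like cells (0.633 to 0.964). *Lag3* lies on chr6:124904361-124911705 (minus strand), and 1975 bases upstream of it on the same strand ends *Ptms*, which had 153 to 520 CPM in the 6 classes examined.

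*Tox* was the most abundant of the 8 genes in T cells and was highest in the γδ-like cluster. There it was found in 97.0%, 99.0% and 97.1% of cells at 1238, 1778 and 1426 CPM, with ratios of 1.44 (1.33 to 1.55) for AA to Neg and 0.802 (0.744 to 0.865) for AA+Ab to AA. In the T cell-like cluster it was at 528, 395 and 417 CPM, with ratios of 0.748 (0.655 to 0.856) and 1.05 (0.937 to 1.19). Over all T cells by the rule the levels of 390, 465 and 448 CPM gave ratios of 1.19 (1.12 to 1.27) and 0.963 (0.906 to 1.02). After thinning, 44.2%, 31.9% and 44.0% of T cells by the rule had a *Tox* UMI, against 71.4%, 54.1% and 66.5% before it, so by share of cells AA was the lowest library. The direction of the level from AA to Neg was thus opposite in the 2 T clusters, and by the rule it changed with the definition of T cells. In CD8 cells *Tox* had 4, 304 and 105 UMIs (47.9, 250 and 178 CPM), was found in 33.3%, 45.2% and 46.2% of cells, and its ratio of AA+Ab to AA was 0.711 (0.564 to 0.890). *Tox* lies on chr4:6686353-6991557 (minus strand), and an antisense gene, *Gm11802*, overlaps it. Keratinocyte-like cells had a *Tox* UMI in 0.820%, 1.07% and 0.613% of cells.

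**Figure D2:**
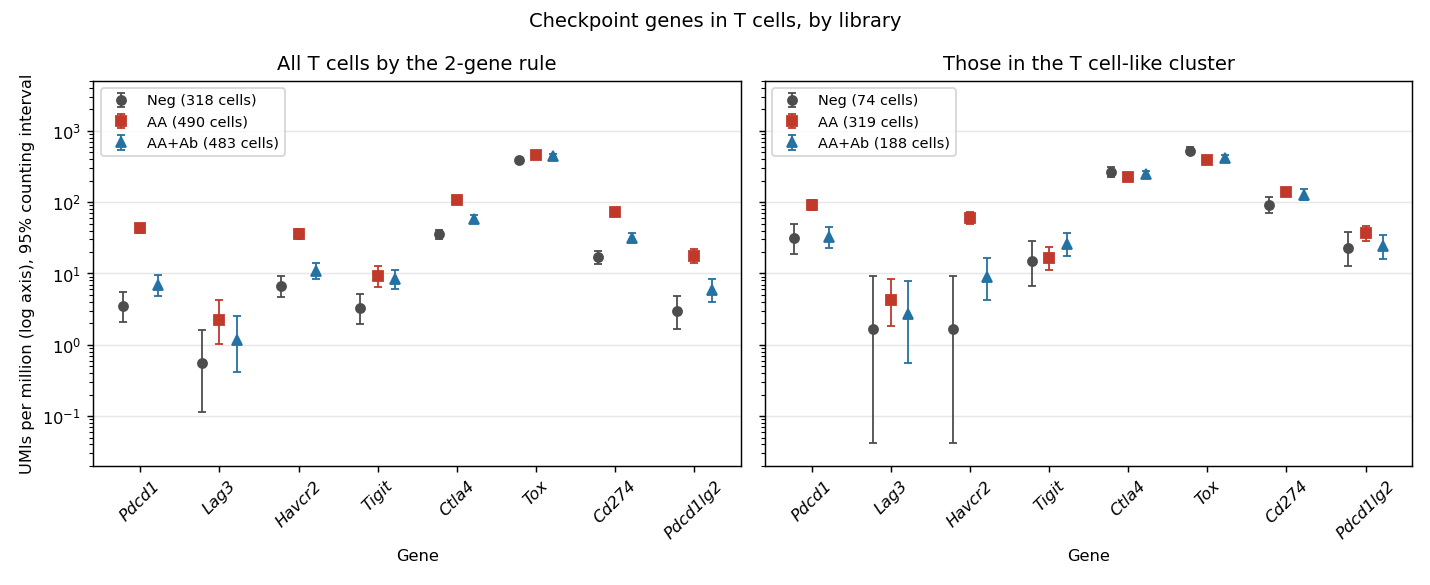
Level of the 8 genes (CPM, log axis, exact 95% Poisson interval) in all T cells by the 2-gene rule (left) and in those of the T cell-like cluster (right), by library. *Pdcd1* and *Havcr2* were highest in AA in both panels, whereas *Ctla4* was highest in AA only by the rule.

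The number of genes past a 2-fold difference shows the same dependence. Among genes with at least 20 UMIs in a pair of libraries, 6 of 7 members were at least 2-fold higher in AA than in Neg over all T cells, against 6.67% of 12555 genes, and 0 were 2-fold lower, against 4.25%. From AA to AA+Ab, 0 of 7 were 2-fold higher (3.35% of 12481 genes) and 4 were 2-fold lower (4.48%), namely *Pdcd1*, *Havcr2*, *Cd274* and *Pdcd1lg2*. In the T cell-like cluster only *Pdcd1* and *Havcr2* of 7 were 2-fold higher in AA than in Neg (8.78% of 9215 genes) and 0 were 2-fold lower (4.83%). There the same 2 genes were 2-fold lower in AA+Ab than in AA (5.03% of 9750 genes) and 0 were 2-fold higher (3.95%). In CD8 cells *Tigit* was 2-fold higher in AA+Ab than in AA (5.10% of 8394 genes) and *Pdcd1*, *Havcr2* and *Pdcd1lg2* were 2-fold lower (7.60%). The median log2 ratio of the members from AA to Neg was 2.10 by the rule and 0.60 in the cluster, with medians over all genes of -0.05 and 0.06. From AA to AA+Ab it was -1.21 and -0.13, with 0.01 and -0.02 over all genes.

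**Figure D3:**
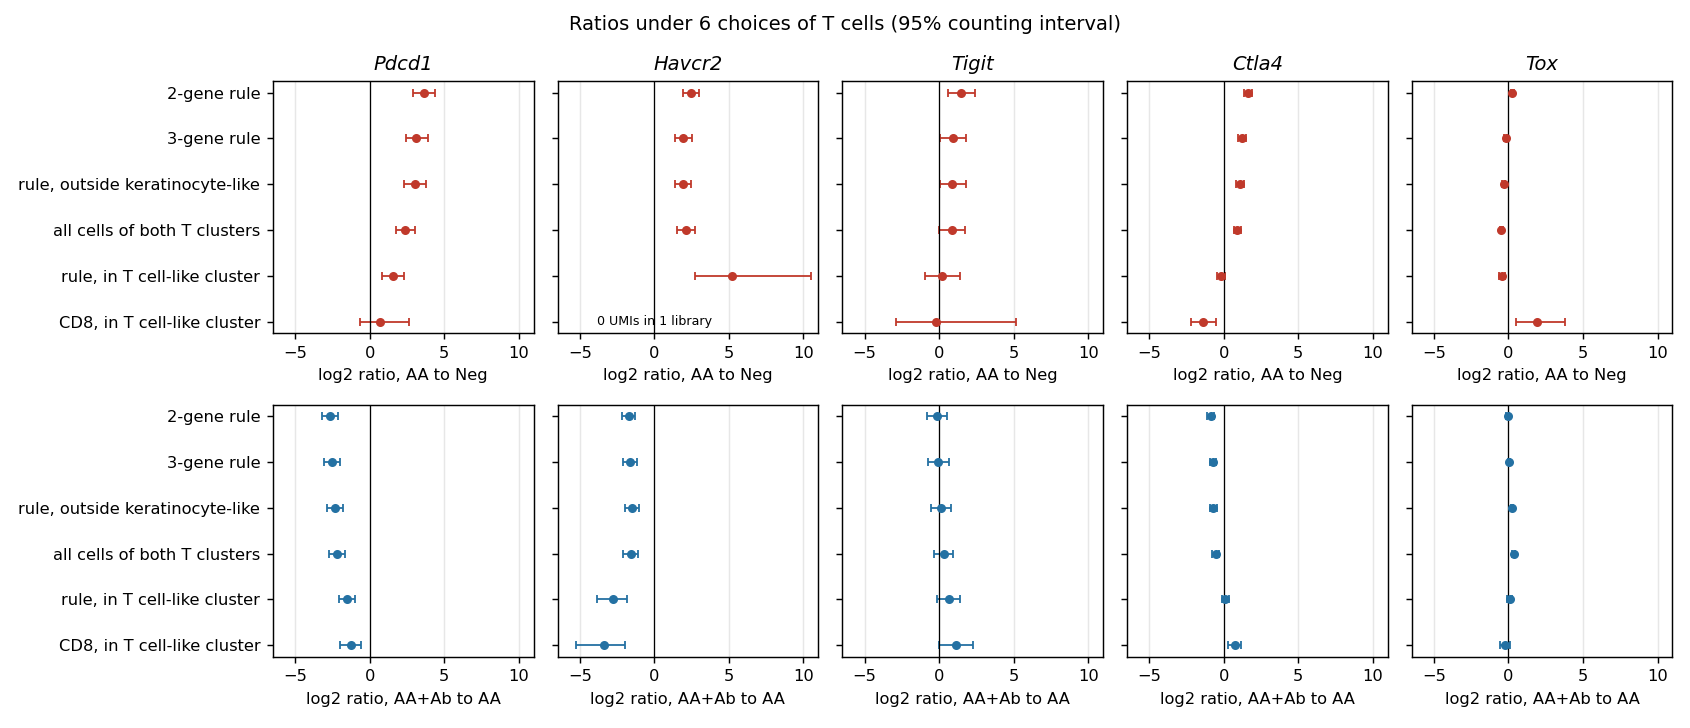
Log2 ratio of CPM with its exact 95% interval for 5 genes (columns), AA to Neg in the upper panels and AA+Ab to AA in the lower, under 6 choices of T cells (rows, from the 2-gene rule to CD8 cells of the T cell-like cluster). The points of *Pdcd1* stay on 1 side of 0 in both comparisons, and those of *Ctla4* and *Tox* cross it.

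Other genes of T cell activation and exhaustion were described in the T cell-like cluster by lists, with those past 2-fold named after their values were seen. Among all genes with enough UMIs in this cluster, 8.78% were 2-fold higher and 4.83% lower in AA than in Neg. From AA to AA+Ab, 3.95% were higher and 5.03% lower. Of 9 further co-inhibitory receptors, 3 were at least 2-fold higher in AA than in Neg and 1 lower (median log2 ratio 0.38). *Cd244a*, the receptor 2B4, had a ratio of 7.69 (3.45 to 21.3), *Cd160* 3.19, *Cd200r1* 2.50 and *Btla* 0.418. From AA to AA+Ab, 1 was higher (*Klrg1*, 2.75) and 2 were lower (*Cd244a*, 0.318, 0.202 to 0.482, and *Entpd1*, 0.418), with a median of -0.12. In the cluster *Cd244a* thus had its highest level in AA, but by the 2-gene rule it was at 104.1, 105.5 and 119.6 CPM, with ratios of 1.01 (0.891 to 1.15) and 1.13 (1.00 to 1.29), and was not highest there. By the rule *Btla* turned for AA to Neg, at 1.63 (0.774 to 3.47), while *Cd160* (1.54) and *Cd200r1* (6.22) kept their direction. For AA+Ab to AA *Klrg1* was at 1.24 (0.767 to 2.05) and *Entpd1*, from 8 and 25 UMIs, at 0.246 (0.0957 to 0.562). *Cd96* and *Cd5*, which with *Cd244a* and *Cd160* had the most UMIs of this list, had ratios of 1.36 (0.839 to 2.31) and 1.28 (0.935 to 1.78) for AA to Neg, both including 1. Of 8 co-stimulatory receptors, 1 was higher in AA (*Cd40lg*, 3.70) and 0 were lower (median 0.67), and 0 were past 2-fold in either direction from AA to AA+Ab (median -0.22). *Icos* and *Cd28*, with the most UMIs of this list, had ratios of 1.43 and 1.35 for AA to Neg.

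Of 14 factors of exhausted, memory and effector T cells with enough UMIs, *Tox* included, 4 were higher in AA than in Neg and 1 was lower (median 0.60). *Tbx21*, the factor of type 1 T cells, had a ratio of 5.45 (3.94 to 7.74). *Nr4a2* and *Nr4a3*, early response genes that T cell receptor signalling and other stimuli induce, had ratios of 4.16 and 2.76, *Irf4* 3.42, and *Nr4a1*, with the most UMIs of the list, 1.72 (1.48 to 2.0). *Lef1*, a factor of naive and memory T cells, was lower (0.134, 0.107 to 0.167). In AA+Ab compared with AA, *Lef1* was higher (3.06) and *Tbx21* (0.368), *Nr4a2* (0.416) and *Nr4a3* (0.435) were lower, with a median of -0.41. Over all cells of the skin the Nr4a genes had the same directions, with ratios for *Nr4a1*, *Nr4a2* and *Nr4a3* of 1.37, 1.45 and 1.64 for AA to Neg and of 0.474, 0.577 and 0.415 for AA+Ab to AA. *Tcf7*, which marks the less differentiated exhausted cells, had ratios of 0.744 (0.572 to 0.975) and 1.58 (1.28 to 1.94) in the cluster. By the 2-gene rule *Tcf7* turned for AA to Neg, at 1.32 (1.13 to 1.54), and was at 1.05 (0.913 to 1.22) for AA+Ab to AA. *Lef1* by the rule kept its directions with smaller differences, at 0.766 (0.670 to 0.876) and 1.40 (1.23 to 1.60). All 7 effector genes with enough UMIs were at least 2-fold higher in AA than in Neg (median 1.83), among them *Nkg7* at 3.57 (2.96 to 4.34), *Ifng* at 5.78 (4.15 to 8.28) and *Gzmb* at 4.16 (2.85 to 6.30). In AA+Ab, *Gzmb* of 8 was 2-fold lower than in AA (0.293, 0.221 to 0.382), *Ifng* had a ratio of 0.605 (0.519 to 0.702), and the median was -0.26. Of 6 genes known to be induced by interferon-γ, 5 were higher in AA (median 1.57) and 4 lower in AA+Ab than in AA (median -1.24), among them *Irf1*, with ratios of 2.25 (1.69 to 3.04) and 0.470 (0.375 to 0.583). *Cxcl9*, also counted, had 0 UMIs in Neg and AA+Ab and 267 in AA, which came from 2 cells. By the 2-gene rule the counts for AA to Neg were 4 of 9 co-inhibitory receptors, 7 of 8 co-stimulatory receptors, 8 of 15 factors, 5 of 7 effector genes and 6 of 7 interferon-γ-induced genes higher, with 0 lower in each list. For AA+Ab to AA they were 3 of 9, 5 of 8, 7 of 14, 4 of 8 and 5 of 6 lower, with 0 higher in each list. Among all genes by the rule, 6.67% were 2-fold higher for AA to Neg and 4.48% lower for AA+Ab to AA. The share of CD8 cells in the cluster differed between libraries along with these lists, as given above. Among all genes in CD8 cells, 5.10% were 2-fold higher and 7.60% lower from AA to AA+Ab. Within CD8 cells, from AA to AA+Ab, 3 of 6 co-inhibitory receptors were 2-fold lower and 0 higher, *Cd244a* among them (0.444, 0.267 to 0.709), 3 of 14 factors were higher and 2 lower, with *Lef1* at 3.96 (2.82 to 5.63) and *Tbx21* at 0.395 (0.316 to 0.489), and 1 of 7 effector genes, *Gzmb* (0.320, 0.213 to 0.466), was lower.

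The ligand *Cd274* was found in almost every class, and its level differed more between classes than between libraries. It was highest in monocyte/neutrophil-like cells, at 640 CPM in Neg, 704 CPM in AA and 623 CPM in AA+Ab (28, 15 and 96 cells), followed in Neg and AA+Ab by B cell-like cells at 289, 159 and 293 CPM (9, 9 and 27 cells). In AA the B cell-like value rests on 12 UMIs, and its interval (82.1 to 277 CPM) spans the levels of T cell-like and DC/Mac-like cells. In monocyte/neutrophil-like cells the ratios were 1.10 (0.773 to 1.55) for AA to Neg and 0.884 (0.660 to 1.20) for AA+Ab to AA, both within counting error of 1. In the T cell-like class it was at 98.4, 145 and 132 CPM, with ratios of 1.48 (1.16 to 1.90) and 0.907 (0.751 to 1.09). Dendritic cell and macrophage-like (DC/Mac-like) cells had 41.0, 148 and 163 CPM, with ratios of 3.61 (2.02 to 7.03) and 1.10 (0.779 to 1.54). These DC/Mac-like values rest on few cells, since 5 cells held 61.5%, 72.2% and 65.5% of the UMIs, and 1 cell in AA held 34 of 97. Intervals of T cell-like and DC/Mac-like cells overlapped in AA (130 to 162 against 120 to 181 CPM) and in AA+Ab (113 to 153 against 124 to 210 CPM), so their order is not resolved there.

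In most non-immune classes *Cd274* was highest in AA, at levels below those of the immune classes above in the same library. The γδ T cell-like class was low as well, at 18.3, 14.1 and 7.87 CPM. Keratinocyte-like cells, which held 40.3%, 43.1% and 28.9% of all *Cd274* UMIs, had 188, 592 and 269 UMIs, or 1.90, 5.08 and 2.30 CPM. Their ratios were 2.68 (2.27 to 3.17) for AA to Neg and 0.452 (0.390 to 0.523) for AA+Ab to AA. The largest differences among keratinocyte-like cells lay in hair follicle classes. In the outer bulge and outer root sheath *Cd274* had 2, 63 and 4 UMIs (1.21, 13.6 and 1.96 CPM), with ratios of 11.3 (2.99 to 95) and 0.145 (0.0382 to 0.389). In the upper hair follicle it had 9, 47 and 7 UMIs (1.38, 12.2 and 0.852 CPM), with ratios of 8.90 (4.31 to 20.7) and 0.0696 (0.0266 to 0.155). Suprabasal interfollicular cells had ratios of 2.76 (1.60 to 4.98) and 0.95 (0.643 to 1.40), and cycling cells of 2.42 (1.63 to 3.64) and 0.234 (0.142 to 0.374). The basal interfollicular class had 2.70, 5.38 and 3.76 CPM, with ratios of 1.99 (1.49 to 2.69) and 0.699 (0.547 to 0.889). In the class named inner root sheath and hair shaft, with *Krt71*, *Krt25* and *Krt28* among its leading genes, 5, 4 and 4 UMIs gave ratios of 0.990 (0.196 to 4.60) and 0.906 (0.169 to 4.86). This class does not stand for the hair shaft. A cluster led by *Krt35* got no subtype, and several clusters that also had inner root sheath and hair shaft markers were named cycling. The sebaceous gland class had 20.4, 22.4 and 10.4 CPM, and its ratio of AA to Neg was 1.10 (0.586 to 2.18).

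Melanocyte-like cells and fibroblasts also had more *Cd274* in AA. Melanocyte-like cells had 28, 86 and 38 UMIs (21.9, 101 and 24.8 CPM) in 40, 59 and 70 cells, with ratios of 4.60 (2.97 to 7.32) and 0.246 (0.163 to 0.364). Their median depth differed, at 33605, 7425 and 20100.5 UMIs per cell, and the part of depth in this difference was not tested. Without the highest cell of each library their log2 ratios were 2.02 and -1.82. Dermal fibroblast-like cells had 8, 22 and 5 UMIs, with ratios of 3.33 (1.43 to 8.65) and 0.421 (0.124 to 1.14). An unnamed cluster led by interferon-induced genes and also carrying *Krt14*, with 0, 105 and 5 cells, had 150 *Cd274* UMIs (122 CPM) in 37 of its 105 AA cells. It had 7 general keratinocyte markers in 50% of cells but stayed unnamed because markers of another class led. The keratinocyte-like values leave it out.

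*Gbp2*, a guanylate-binding protein gene known to be induced by interferon-γ, was higher in keratinocyte-like cells with a *Cd274* UMI than in those without one. Over all keratinocyte-like cells *Gbp2* was at 3.52, 14.6 and 5.56 CPM, the order of libraries seen for *Cd274*. In AA the 336 keratinocyte-like cells with a *Cd274* UMI had 78.0 CPM of *Gbp2*, and the 8273 cells without one had 11.3 CPM. The former had a higher median depth, 14192.5 against 11450 UMIs. In Neg the same comparison gave 12.4 and 3.17 CPM, and in AA+Ab it gave 21.4 and 4.98 CPM. In the unnamed interferon-led cluster of AA, *Gbp2* was at 232 CPM, in a cluster that is itself led by such genes.

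*Pdcd1lg2* was restricted mainly to immune cells. Over all cells it had 28, 98 and 70 UMIs, of which the T cell-like class held 71.4%, 75.5% and 52.9%. That class had 22.6, 34.6 and 27.1 CPM, with ratios of 1.53 (0.923 to 2.65) and 0.784 (0.513 to 1.18), both including 1. DC/Mac-like cells had 9.47, 12.2 and 28.1 CPM, from 3, 8 and 10 UMIs. Keratinocyte-like cells had 1, 8 and 4 UMIs. In CD8 cells it had 2, 33 and 4 UMIs, with a ratio of AA+Ab to AA of 0.25 (0.0642 to 0.701). *Pdcd1lg2* (chr19:29410919-29471161, plus strand) begins 22823 bases downstream of *Cd274* on the same strand, and each is overlapped by an antisense gene, *A930007I19Rik* and *AC119228.1*.

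**Figure D4:**
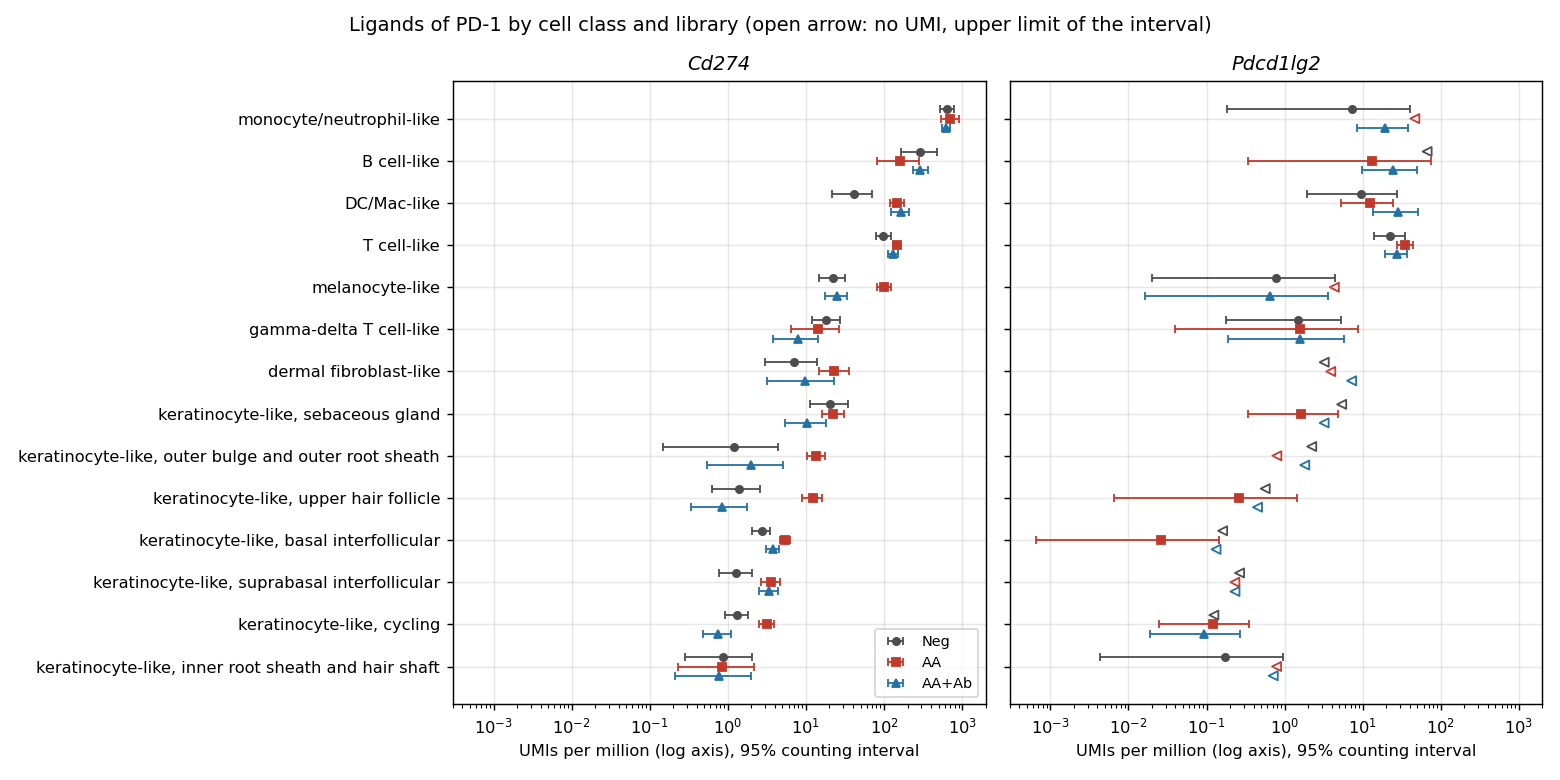
Level of *Cd274* (left) and *Pdcd1lg2* (right) in CPM (log axis, exact 95% Poisson interval) by cell class and library, with open arrows at the upper limit where a class had no UMI. *Cd274* was highest in monocyte/neutrophil-like cells of every library, and its AA values stood apart from the others in melanocyte-like, outer bulge and outer root sheath, and upper hair follicle cells.

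Summed over all cells, *Cd274* had 466, 1374 and 930 UMIs (3.91, 10.1 and 6.66 CPM), with ratios of 2.59 (2.33 to 2.88) for AA to Neg and 0.657 (0.604 to 0.715) for AA+Ab to AA. With every cell thinned to 1000 UMIs the second ratio changed sign (log2 0.22 against -0.61). The monocyte/neutrophil-like cells, which are shallow, held 19.1%, 4.08% and 27.5% of the *Cd274* UMIs. *Pdcd1lg2* over all cells had ratios of 3.08 (2.0 to 4.86) and 0.694 (0.503 to 0.952). Of the 8 members, 3 were at least 2-fold higher in AA than in Neg over all cells, *Pdcd1*, *Cd274* and *Pdcd1lg2*, against 3.17% of 19482 genes, and 0 were lower (3.71%). From AA to AA+Ab 0 were higher (2.58% of 19463 genes) and 1, *Pdcd1*, was lower (4.09%). Of 13 ligands of the checkpoint receptors with enough UMIs over all cells, the 2 members included, 3 were 2-fold higher in AA than in Neg (the third was *Fgl2*, 2.0) and 1 lower (*Ceacam1*, a TIM-3 ligand, 0.352). The median log2 ratio was 0.40. From AA to AA+Ab 1 was higher (*Ceacam1*, 2.23) and 0 were lower, with a median of -0.53. *Lgals3* and *Hmgb1*, with the most UMIs of the list, had ratios of 1.07 and 0.801 for AA to Neg. *Nectin2*, a TIGIT ligand, was at 27.3, 43.8 and 23.0 CPM, with ratios of 1.60 (1.54 to 1.67) and 0.525 (0.502 to 0.548). Of the ligands that bind CTLA-4, *Cd80* was at 0.873, 0.730 and 0.895 CPM. *Cd86* was at 2.74, 4.33 and 2.60 CPM, with ratios of 1.58 (1.38 to 1.81) and 0.600 (0.525 to 0.686). By class, *Cd86* reached 114, 501 and 289 CPM in the DC/Mac-like class. The B cell-like class, with few cells, went the other way, at 235, 0 and 111 CPM.

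Outside T cells *Havcr2* was highest in a small unnamed cluster led by *Cd207*, a gene of Langerhans cells. It had 70, 49 and 60 UMIs there in 13, 15 and 26 cells, or 267, 145 and 74.8 CPM, which was above its level in any T cell class of the same library. DC/Mac-like cells had 44.2, 22.9 and 33.7 CPM. *Ctla4* was also found in B cell-like cells of AA+Ab, with 48 UMIs in 11 of 27 cells (167 CPM), against 1 and 2 UMIs in the 9 B cell-like cells each of Neg and AA. Of all *Havcr2* UMIs, the *Cd207* cluster held 53.0%, 21.4% and 43.2% and DC/Mac-like cells 10.6%, 6.55% and 8.63%.

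The genes with the pattern most like each member were sought over the 45 pairs of cell class and library with at least 20 cells, by Pearson correlation of log2(CPM + 10) among 15162 genes. The pairs share libraries and most are low in every immune gene. *Pdcd1* was most like *Gzmb* (r = 0.98), *Gm44174* (0.97) and *Gpr174* (0.96). *Havcr2* was most like *Tm6sf1* (0.90), *Rgs18* (0.87) and *Cd244a* (0.86), and *Tigit* like *Cxcr6* (0.92), *Xlr4b* (0.92) and *Sh2d2a* (0.91). *Ctla4* was most like *Ikzf3* (0.94), *Ccr7* (0.92) and *Il21r* (0.91), and *Tox* like *Nkg7* (0.97), *Themis* (0.97) and *Cd3g* (0.96). *Lag3*, with its low counts, reached 0.81 with *Zfp966*, 0.79 with *Ildr1* and 0.76 with *Gm30881*. *Cd274* was most like *Adgre5* (0.88), *Sp140* (0.86) and *Gmfg* (0.85), and *Pdcd1lg2* like *Sla* (0.95), *Tagap* (0.95) and *Itga4* (0.94).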

How the data were processed

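Per the labels and the study's methods, the authors made 10x libraries and aligned and counted them with Cell Ranger 7.2.0 on mm10 (FastQC 0.11.7 is also named), and the deposited values are raw UMI counts per gene and barcode, called as cells by the authors. The annotation release and the counting of intronic reads are not given in the sources used here. The libraries held 6965, 10879 and 10507 barcodes. UMIs of a gene were summed over cells and divided by all UMIs of these cells (CPM). Sums have Poisson, shares Clopper-Pearson and ratios exact conditional intervals at 95%. With 1 library per group no p-value was computed. Cells were clustered (2000 variable genes without the members, 30 principal components, 20 neighbours, Leiden resolution 1.5) into 40 clusters, of which 31 were named from markers and 9 stayed unnamed. A name other than keratinocyte-like, and a keratinocyte subtype, needed at least 3 markers, and 50% of the list, at 2-fold and in 25% of cells. The 23 keratinocyte-like clusters passed no other list and needed at least 5 general keratinocyte markers, each in 50% of cells, with no fold required. These thresholds were set on these data. Doublets were scored by simulation (347, 871 and 773 cells) and kept, and leaving them out is an alternative. Named genes are the 8 members, gene lists (co-inhibitory and co-stimulatory receptors, factors, effector genes, ligands, interferon-γ-induced genes) with those of most UMIs in T cells (ligands: in all cells) and, for each member, the 3 genes most like it, while list genes past 2-fold were named after their values were seen. The members and lists were chosen with earlier results of these data known. The code of the ratios was run on simulated data for T cells, AA to Neg, over 12555 genes: the interval covered 95.6% of unchanged genes, 100% of the genes raised 4-fold passed 2-fold, and 0.478% of unchanged genes passed 2-fold higher. The simulated sums were Poisson draws, the counting model that the intervals assume, with no spread between cells. This run therefore cannot show how the intervals hold for genes whose UMIs lie in few cells. Clusters were made with leidenalg 0.10.2 on igraph 0.11.9, nearest neighbours with scikit-learn 1.9.0, intervals with scipy 1.17.1, tables with pandas 2.3.3 and numpy 2.4.6 and figures with matplotlib 3.10.9, all in Python 3.11.15. Sequences and positions came from RefSeq (GRCm38.p6) and GENCODE M21.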

Additional observations from a re-analysis of the deposited data

How the results depend on the processing

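Each of 26 log2 ratios of a gene was recomputed under the alternatives that apply to it, 224 recomputations in all. Of these, 22 (the T cell-like cluster and its CD8 cells) were chosen after seeing the data. The percentages of genes past 2-fold were also recomputed, with other minimum counts, and are not part of these numbers. A percentage within 1.5 times of its main value was taken as unmoved. Of the 224 log2 ratios, 168 moved by no more than counting error, 44 moved by more and 12 were counted as reversed. The sign was kept in 192 of the 224, so values that changed sign also lie among the 168 and the 44. For 4 alternatives there was no value because a library had 0 UMIs. No paired analysis was possible because each group has 1 library, and for the same reason no library was left out. Low counts limit *Lag3* and *Tigit*, and the number of cells (12) limits CD8 cells of Neg. Where values moved, the cause was not tested.

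The choice of T cells moved most values (log2 ratios, AA to Neg first). In the T cell-like cluster they were 1.54 and -1.50 for *Pdcd1*, 5.20 and -2.76 for *Havcr2*, 0.16 and 0.65 for *Tigit*, -0.20 and 0.10 for *Ctla4*, and -0.42 and 0.076 for *Tox*. There *Ctla4* reversed in both and *Tox* for AA to Neg. *Tigit* and *Tox* also changed sign for AA+Ab to AA, from values by the rule whose intervals spanned no difference. In its CD8 cells they were 0.72 and -1.24 for *Pdcd1*, -0.21 and 1.14 for *Tigit*, -1.42 and 0.72 for *Ctla4*, and 1.90 and -0.23 for *Tox*, and AA+Ab to AA was 1.23 for *Lag3* and -3.36 for *Havcr2*. Over all cells of both T clusters they were 2.38 for *Pdcd1* (AA to Neg), 0.91 and -0.55 for *Ctla4*, and -0.47 and 0.35 for *Tox*. Outside keratinocyte-like clusters AA to Neg was 1.90 for *Havcr2*, 1.08 for *Ctla4* and -0.32 for *Tox*, and AA+Ab to AA was 0.23 for *Tox*. With 3 T cell genes required AA to Neg was 1.24 for *Ctla4* and -0.20 for *Tox*. With 1 it was 1.14 for *Ctla4*, and AA+Ab to AA was -0.17 for *Tox*. Without scored doublets *Tox* was at 0.48 and 0.10.

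Thinned to 1000 UMIs per cell the log2 ratios were 2.93 and -2.10 for *Pdcd1*, -2.20 and 3.49 for *Tigit* (1 UMI left in AA), 0.80 and -0.42 for *Ctla4*, and -0.54 and 0.52 for *Tox*, and AA+Ab to AA was -0.97 for *Havcr2*. Over all cells they were 0.95 and 0.22 for *Cd274*, the second reversed, and 0.55 for *Pdcd1lg2* (AA to Neg). The percentage of genes past 2-fold moved with the minimum of 20 UMIs. In T cells it was 2.30 (50 UMIs) and 8.42 (5 UMIs) lower in AA than in Neg, 1.86 and 7.33 higher in AA+Ab than in AA, and 7.29 (5 UMIs) lower. Over all cells it was 5.09 (5 UMIs) higher in AA than in Neg, 2.23 and 6.53 lower, 1.65 and 4.67 higher in AA+Ab than in AA, and 6.67 (5 UMIs) lower.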
